A study of Rattus norvegicus with 320 samples.

Results

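The miR-29 family of the rat was followed through small RNA sequencing libraries of 11 organs at 4 ages. Its members were found as the rows of the count table named rno-miR-29a, rno-miR-29b or rno-miR-29c with any arm suffix, which gave 7 of the 616 miRNAs. Of these, 3 were the 3p arms rno-miR-29a-3p, rno-miR-29b-3p and rno-miR-29c-3p, and 4 were the 5p arms rno-miR-29a-5p, rno-miR-29b-5p, rno-miR-29b-1-5p and rno-miR-29c-5p. The family was chosen from its measured levels over organs and ages in these same libraries. Its organ and age patterns are therefore given as a description with no test, and only the comparison of the sexes, which the choice did not use, was tested.

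The rats were of the inbred Fischer 344 strain, with 4 females and 4 males at each of 2 weeks (juvenile), 6 weeks (adolescent), 21 weeks (adult) and 104 weeks (aged), 32 rats in all. Each rat gave the adrenal gland, brain, heart, kidney, liver, lung, skeletal muscle, spleen and thymus, together with the testis or the uterus. RNA was taken from powder of the whole ground organ, so each library mixes all cell types of that organ, and fewer cells of a type cannot be told apart from less RNA per cell. All but 2 of the 320 libraries were used, since the study set aside replicate 3 of the male brain at week 6 and replicate 4 of the female spleen at week 104. Levels are given as CPM, the count of a miRNA divided by the total of all miRNA counts of its library, times 1000000. Reads of other RNA classes are not in this total. Library totals of this kind ranged from 315550 to 10571766 counts.

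MicroRNAs are short RNAs that guide Argonaute proteins to matching sites in messenger RNAs, mostly through bases 2 to 8 of the miRNA, the seed, and lower the output of those messengers. Each hairpin precursor can yield a 5p and a 3p arm, and in the miR-29 family the 3p arm is the guide that accumulates. The family is best known for targeting messengers of the extracellular matrix, collagens, elastin and fibrillin among them, and those of the de novo DNA methyltransferases. In the brain it is known for restraining cell death genes in maturing neurons.

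The 3p arms are shown here because their shared seed, in capitals, defines the family and because they differ from each other at only a few bases.
rno-miR-29a-3p: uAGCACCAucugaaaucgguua
rno-miR-29c-3p: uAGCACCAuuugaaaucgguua
rno-miR-29b-3p: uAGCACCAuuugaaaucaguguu
The sequences are those of RefSeq for the GRCr8 assembly and were identical to the sequences that the count table lists. The seed AGCACCA was found in 3 of the 616 miRNAs of the table, which were these 3. Counting from 1 at the 5′ end, 29a-3p and 29c-3p differed by the single substitution C10U (29a-3p has C, 29c-3p has U). From 29a-3p to 29b-3p the substitutions were C10U, G18A, U21G and A22U, and from 29c-3p to 29b-3p they were G18A, U21G and A22U, so that 29c-3p and 29b-3p shared their first 17 bases. Reads were aligned with fewer than 2 mismatches, so a read of 29a-3p or 29c-3p with 1 wrong base could have been counted for the other.

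The 4 genes of the family lie in 2 clusters of GRCr8. Mir29a and Mir29b1 lie on the minus strand at chr4:60617955-60618414, a span of 460 bases with 291 bases between the hairpins. Mir29b2 and Mir29c lie on the plus strand at chr13:109098831-109099446, a span of 616 bases with 447 bases between them. Both 29b hairpins hold the same 3p sequence, so rno-miR-29b-3p cannot be assigned to a cluster, whereas the 5p arms can. They are shown because each one names its own gene, again with bases 2 to 8 in capitals.
rno-miR-29a-5p: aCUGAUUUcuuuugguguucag
rno-miR-29b-1-5p: uUUCAUAUggugguuuagauuu
rno-miR-29b-5p: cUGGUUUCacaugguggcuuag
rno-miR-29c-5p: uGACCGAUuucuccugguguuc
The row rno-miR-29b-5p has the 5p sequence of Mir29b2 on chromosome 13, and rno-miR-29b-1-5p that of Mir29b1 on chromosome 4. The 4 seeds all differ from each other and from that of the 3p arms.

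The 3p arms were counted in every library and the 5p arms were scarce. Counts of rno-miR-29a-3p ran from 170 to 87208 with a median of 5971, those of rno-miR-29c-3p from 35 to 8641 with a median of 768, and those of rno-miR-29b-3p from 10 to 4614 with a median of 309. The median counts of the 5p arms were 37.5 for 29c-5p, 21 for 29a-5p, 9 for 29b-1-5p and 7 for 29b-5p. The last was at 0 in 27 libraries and 29b-1-5p was at 0 in 8, so single values of the 5p arms carry large counting errors. All 7 members entered the reported fit of every organ, since no filter on low counts was applied there. An alternative fit required a mean count of at least 10.

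Within the family, rno-miR-29a-3p made up 84.0% ± 5.58 of the 3p reads (SD over libraries), with 67.0% in the lowest and 93.4% in the highest library. The share of rno-miR-29c-3p was 12.04% ± 5.62 and that of rno-miR-29b-3p was 4.00% ± 1.43. The order 29a-3p, 29c-3p, 29b-3p was thus held by the means over all libraries, although the 29c-3p share in single libraries ran from 3.95% to 29.2% and overlapped with that of 29b-3p, which ran from 1.25% to 8.51%. It was not held in every organ and age. In all juvenile thymus libraries and most juvenile spleen libraries 29b-3p stood above 29c-3p. The 5p arm took 0.392% ± 0.263 of all 29a reads, 5.27% ± 3.59 of the 29c reads and 7.01% ± 5.58 of the 29b reads. Read shares of this kind also carry the ligation preferences of the library kit, whose part was not tested.

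Each of the 3p arms had its highest mean in the brain at every age when counted against all miRNA reads of an organ. The lowest mean was that of skeletal muscle or the uterus, except for rno-miR-29c-3p at week 21, which was lowest in the thymus (162 ± 54.0 CPM, SD, n = 8). In the brain, rno-miR-29a-3p had 1803 ± 493 CPM at week 2 (SD, n = 8), 7431 ± 1703 at week 6 (n = 7), 10384 ± 1742 at week 21 (n = 8) and 12086 ± 1971 at week 104 (n = 8). In skeletal muscle it had 160 ± 40.8, 587 ± 131, 1558 ± 293 and 2812 ± 933 CPM at the same ages (n = 8 each). All brain libraries lay above all skeletal muscle libraries of the same age.

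The sum of the 3 3p arms placed the brain first at every age, with the spleen second at weeks 2, 6 and 21 and the testis second at week 104. Skeletal muscle was last at weeks 2, 6 and 21 and the uterus at week 104. The highest mean was 11.4 times the lowest at week 2, 12.6 times at week 6, 6.06 times at week 21 and 5.15 times at week 104. On plain CPM the organs therefore lay closer together at weeks 21 and 104 than at weeks 2 and 6. Neighbours in this order mostly could not be separated, since their libraries overlapped for 9 of 10 neighbouring pairs at weeks 2 and 6 and for 10 of 10 at weeks 21 and 104. The exceptions were the testis over the uterus at week 2 and the brain over the spleen at week 6.

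The place of the brain depended on the scaling. With TMM-scaled library sizes, which offset the reads taken by a few dominant miRNAs, the brain at week 2 (977 CPM) came behind the spleen (1191) and the thymus (1053). It stayed first at weeks 6 and 21, and at week 104 (7487 CPM) 3 organs lay above it, the testis leading with 19909. With this scaling the organ means ran from 2966 (thymus) to 6591 CPM (brain) at week 21. They ran from 5201 (thymus) to 19909 CPM (testis) at week 104, so the organs lay further apart then than at week 21. Column totals without the most abundant miRNA of each organ kept the brain first at weeks 2, 6 and 21 and put the testis first at week 104, at 21117 against 17031 CPM.

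**Figure D1:**
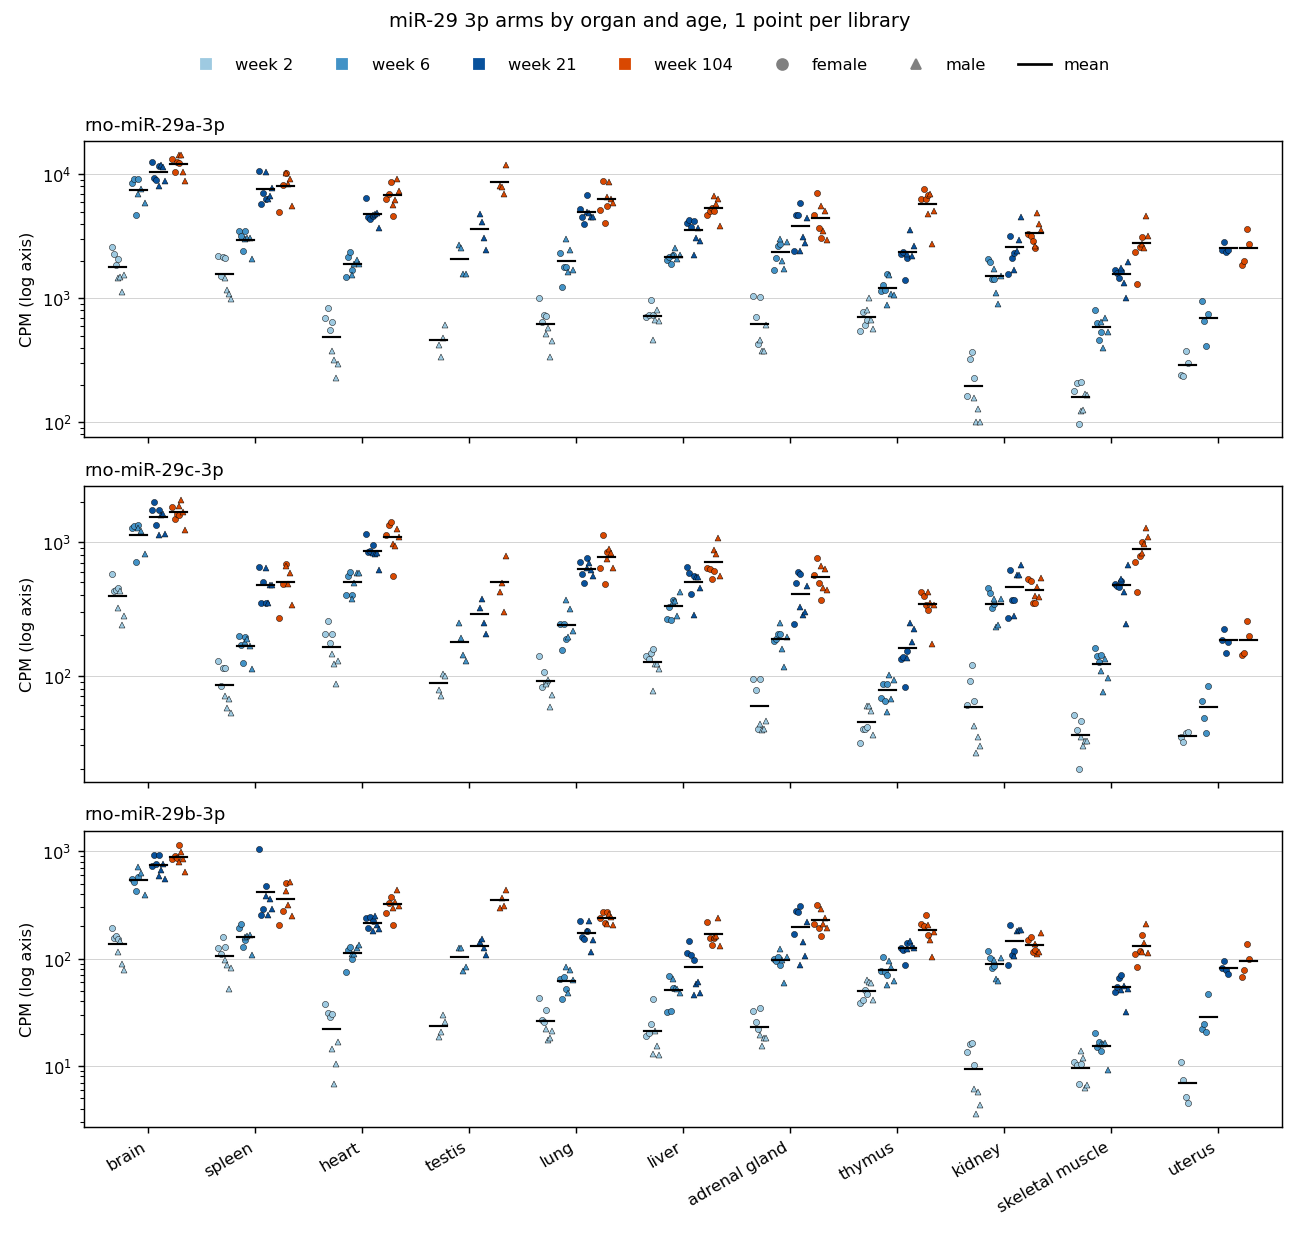
Level of each 3p arm in CPM (log axis) in each library by organ, with circles for females, triangles for males, colours for the 4 ages and a bar at the mean of each organ and age. The week 104 libraries lie above the week 2 libraries for each 3p arm in each of the 11 organs, and week 2 females lie above week 2 males in the heart.

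From week 2 to week 104, each of the 3 3p arms was higher in every organ. The lowest week 104 library lay above the highest week 2 library in 11 of 11 organs for rno-miR-29a-3p, rno-miR-29b-3p and rno-miR-29c-3p, which makes 33 of 33 pairs of arm and organ. Over all 616 miRNAs, 5.02% of the 6776 pairs of miRNA and organ were separated in this way, and 23.1% were separated in the opposite direction. The 3 3p arms were the only 3 of 616 miRNAs separated upward in all 11 organs, and no other miRNA was separated upward in more than 8. With TMM-scaled library sizes the count was also 33 of 33 and the same number of miRNAs, 3, was separated in all organs, while the best of the other miRNAs reached 10. Age was part of the choice of the family, so these counts describe the choice and support nothing beyond it.

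The median log2 fold change from week 2 to week 104 over the 11 organs was 3.62 for rno-miR-29a-3p (2.64 in the spleen to 5.87 in the testis). It was 3.69 for rno-miR-29b-3p (1.57 in the thymus to 5.52 in the testis) and 3.33 for rno-miR-29c-3p (2.53 in the brain to 5.53 in skeletal muscle). These fold changes are from edgeR with TMM scaling, and the median of all miRNAs lay between -0.55 (testis) and 0.07 (brain) on the same scale. With library size as the only scaling, that median was -2.06 in the testis, -1.13 in the uterus and -0.93 in skeletal muscle, so plain CPM changes of the members in these organs are best read against it. With TMM it was -0.55, -0.17 and -0.18 there, so the TMM fold changes above already offset most of this shift. On plain CPM the week 104 mean was 8.87 times the week 2 mean for 29a-3p (median over organs, 5.10 to 18.9), 9.74 times for 29b-3p (3.39 to 14.8) and 6.61 times for 29c-3p (4.23 to 25.0).

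Several organs illustrate its size. In the kidney rno-miR-29a-3p was at 100 to 367 CPM in the 8 juvenile libraries (mean 196) and at 2550 to 4858 CPM in the 8 aged ones (mean 3378), a log2 fold change of 4.44 ± 0.13 (SE). In the heart it was at 226 to 831 CPM and then at 4612 to 9128 CPM, a log2 fold change of 4.48 ± 0.12. In skeletal muscle the juvenile libraries held 97.2 to 211 CPM and the aged ones 1311 to 4623 CPM, a log2 fold change of 5.04 ± 0.19. By rank among the 616 miRNAs of the organ, 29a-3p moved from place 137 to place 28 in skeletal muscle, from 96 to 25 in the kidney and from 105 to 10 in the testis.

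Most of this difference lay between the juvenile and the adult age. From week 2 to week 6 the median log2 fold change over organs was 2.13 for 29a-3p, 2.13 for 29b-3p and 1.58 for 29c-3p, and the libraries were separated upward in 9, 6 and 8 organs. Of all pairs of miRNA and organ, 3.98% were separated upward over this step. From week 6 to week 21 the medians were 1.07, 1.11 and 1.10, with 5, 5 and 5 organs separated against 1.56% of all pairs. From week 21 to week 104 the medians were 0.38, 0.34 and 0.30, with 1, 2 and 0 organs separated against 1.24% of all pairs. None of the 3p arms was separated downward in any organ over any of these steps.

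**Figure D2:**
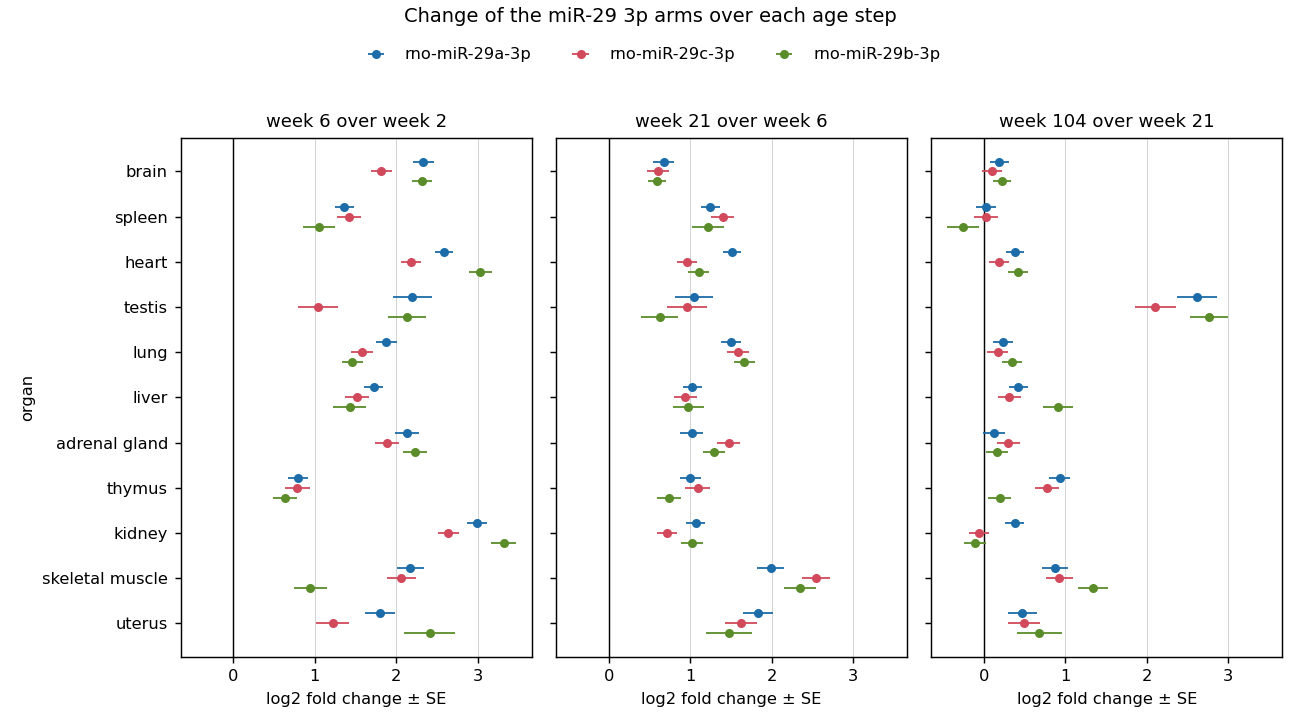
Log2 fold change of the 3p arms with its standard error (horizontal axis) in each of 11 organs (vertical axis) for the steps from week 2 to 6, 6 to 21 and 21 to 104, from edgeR with TMM scaling. The medians over organs for rno-miR-29a-3p are 2.13, 1.07 and 0.38, and in the testis the last step has the value 2.62.

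Organs took these steps differently. In the kidney the first step was the largest for all 3 arms, with log2 fold changes of 2.99 ± 0.12 for 29a-3p, 3.32 ± 0.15 for 29b-3p and 2.64 ± 0.13 for 29c-3p, while from week 21 to week 104 the means of 29b-3p and 29c-3p went from 147 to 135 CPM and from 464 to 441 CPM. The thymus had the smallest first step, at 0.79 ± 0.13, 0.64 ± 0.15 and 0.79 ± 0.16 in the same order. In the spleen the mean of rno-miR-29b-3p was 420 ± 268 CPM at week 21 and 357 ± 126 at week 104. The wide spread at week 21 came largely from replicate 1 of the females at 1057 CPM, where the other 3 females had 253 to 474.

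The testis showed its own course. Its rno-miR-29a-3p levels were 337 to 608 CPM in the 4 juvenile libraries, 1567 to 2678 at week 6, 2465 to 4816 at week 21 and 7010 to 11812 at week 104, so the last 2 ages were separated. The log2 fold change of this last step was 2.62 ± 0.25 for 29a-3p and 2.76 ± 0.23 for 29b-3p on the TMM scale, whereas the log2 of the ratio of mean CPM was 1.27 and 1.42. The summed germ cell markers miR-34c-5p and miR-449a-5p, which rise with meiosis, stood at 141366 to 160516 CPM at week 21 and at 42.4 to 2065 CPM at week 104. The smooth muscle markers miR-143-3p and miR-145-5p stood at 138460 to 220316 and at 17615 to 58310 CPM. The part of these shifts in the testis values was not tested, and the aged testis libraries lacked most of the marker signal of germ cells that the adult ones held. The study also reports that reads of another class of small RNA, piRNA, dominated the adolescent and adult testis libraries. Such reads are outside the totals used for CPM, and their part in the testis values was not tested.

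The thymus also changed its markers with age. The markers of red blood cells, miR-451-5p, miR-144-5p, miR-144-3p and miR-486, summed to 809 to 1891 CPM at week 2 and to 6286 to 93919 CPM at week 104, and the lymphocyte markers to 36222 to 56596 and to 11325 to 28755 CPM. Over the same span the 29a-3p libraries lay at 542 to 999.6 CPM and then at 2754 to 7581 CPM. Without replicate 1 of the aged males the 3p arms of the thymus kept their upward direction. Among the other organs, the summed striated muscle markers were higher at week 104 in skeletal muscle, the smooth muscle markers in the uterus and the lymphocyte markers in the heart, kidney and lung, each with no overlap of libraries. Taken singly, 2 of 3 striated muscle and 1 of 2 smooth muscle markers were separated there. Of the 3 lymphocyte markers, 1 was separated in the heart, 2 in the kidney and 2 in the lung. In the brain the 3 nervous tissue markers summed to 59596 to 99537 CPM in juveniles and to 44049 to 59204 CPM in aged rats, where 2 of them lay lower in all aged libraries and 1 lay higher.

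Further marker sums were separated between the juvenile and the aged libraries. In the kidney the red blood cell markers stood at 982 to 2337 and at 2354 to 4912 CPM, the pancreas markers at 137 to 335 and at 627 to 1185 CPM, and the nervous tissue markers at 254 to 371 and at 108 to 168 CPM. In the lung the epithelial markers stood at 4544 to 7956 and at 8198 to 12502 CPM. Taken singly, 1 of 4 red blood cell, 1 of 3 pancreas and 1 of 3 nervous tissue markers were separated in the kidney. In the lung 1 of 3 epithelial markers was, so a sum can rest on 1 miRNA of its list. In the testis 6 more lists were lower at week 104, among them the epithelial markers at 1108 to 2301 and then 44.2 to 92.5 CPM, and the red blood cell markers at 3233 to 4484 and then 900.1 to 1826 CPM. The other 4 were those of striated muscle, nervous tissue, pancreas and liver cells, and heart muscle was higher there (0 to 1.77 and 6.57 to 35.4 CPM). The liver cell marker was also lower in the adrenal gland, heart, lung, skeletal muscle and uterus, the pancreas markers in the brain and liver, the germ cell markers in skeletal muscle and the nervous tissue and red blood cell markers in the uterus, while the pancreas markers were higher in the thymus. Taken singly, 1 of 4 red blood cell markers was lower in the testis and 0 of 4 were in the uterus. Of the 3 pancreas markers, 1 was higher in the thymus, while 2 were lower in the brain and 1 in the liver. The part of all these marker differences in the miR-29 values was not tested.

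The study's sample table lists a lower RNA integrity number for every juvenile spleen library than for any aged one, and the part of this in the spleen values was not tested. Without the spleen the 3p arms were separated upward from week 2 to week 104 in 30 of 30 pairs, against 5.32% of all pairs.

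The 5p arms moved in the same direction with smaller values. Aged libraries lay above all juvenile ones in 8 of 11 organs for rno-miR-29a-5p, 7 for rno-miR-29b-1-5p, 6 for rno-miR-29b-5p and 6 for rno-miR-29c-5p, together 27 of 44 pairs, against 33 of 33 for the 3p arms and 5.02% of all pairs. Their median log2 fold change was 2.01, against 3.34 for the 3p arms. The 5p share of the 29a reads was lower at week 104 than at week 2 by its means in all 11 organs, for example 0.222% against 0.491% in the brain and 0.218% against 0.645% in the heart. On plain CPM, rno-miR-29b-5p in the testis was an exception, with a ratio of 0.91 over the 2 ages and libraries that overlapped. On the TMM scale, which gave the medians above, every 5p arm was higher in every organ. The lowest log2 fold change there was 0.87.

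Other groups of miRNAs with related roles were counted beside the family, from lists chosen with results of these data known. Among 15 miRNAs linked to matrix and fibrosis, such as miR-21-5p and the miR-200 members, 25 of 165 pairs of miRNA and organ were separated upward from week 2 to week 104 and 27 downward, with a median log2 fold change of 0.36, where 5.02% of all pairs of miRNA and organ were separated upward and 23.1% downward. The 3 miRNAs of the miR-148 and miR-152 family, which also target a DNA methyltransferase, had 1 of 33 pairs upward and 16 downward, with a median of -0.36. The 9 miRNAs of the miR-17-92 and miR-106b-25 clusters, which act in cell division, had 0 of 99 upward and 72 downward, with a median of -0.91. Of the let-7 list only miR-98-5p was analysed here, with 0 of 11 pairs upward and 2 downward. All miRNAs together had a median of -0.10.

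The balance of 29c-3p to 29a-3p differed between organs. Averaged over ages, 0.265 reads of 29c-3p were counted per read of 29a-3p in skeletal muscle, 0.240 in the heart and 0.209 in the kidney, and 0.0582 in the spleen, 0.0643 in the thymus and 0.0890 in the uterus. The ratio is insensitive to the scaling of a library, since both arms are divided by the same total. The 8 aged skeletal muscle libraries lay at 0.277 to 0.381 and the 7 aged spleen libraries at 0.0547 to 0.0679, with a wide gap between the groups.

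The ratio also changed with age, and not in the same direction everywhere. In the heart it was 0.353 ± 0.0502 at week 2 (SD, n = 8), 0.265 at week 6, 0.182 at week 21 and 0.158 ± 0.0230 at week 104 (n = 8), and no aged heart library reached a juvenile one. In the kidney it went from 0.293 ± 0.0354 to 0.134 ± 0.0262 (n = 8 each) and in the testis from 0.193 ± 0.0229 to 0.0563 ± 0.0108 (n = 4 each), again without overlap. In skeletal muscle it was higher in the aged rats instead, with means of 0.225 ± 0.0373 and 0.319 ± 0.0321 (n = 8 each), where the highest juvenile library at 0.281 and the lowest aged one at 0.277 just overlapped. In the thymus it was 0.0641 ± 0.00945 and 0.0610 ± 0.0137, a difference within the spread of the libraries.

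**Figure D3:**
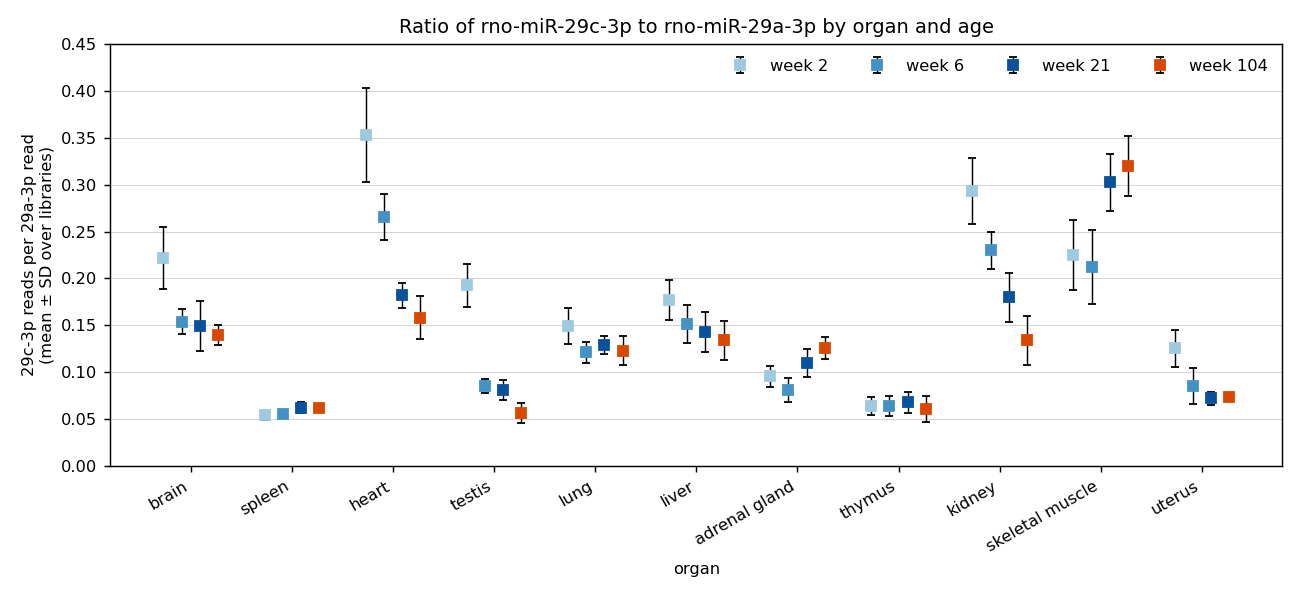
Reads of rno-miR-29c-3p per read of rno-miR-29a-3p (mean ± SD over libraries, vertical axis) by organ (horizontal axis) and age (colour). The heart, kidney and testis have their highest means at week 2 (0.353, 0.293 and 0.193), skeletal muscle has its highest at week 104 (0.319), and the spleen and thymus stay near 0.06.

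The 5p arms, which differ more in sequence than the 3p arms, gave a similar order of organs for the 2 hairpins. Summed over the libraries of an organ, rno-miR-29c-5p had 5.05 reads per read of rno-miR-29a-5p in skeletal muscle (3079 and 610 counts), 2.73 in the kidney and 2.42 in the heart. It had 0.518 in the testis (351 and 677 counts), 0.755 in the spleen and 0.799 in the thymus. Across the 11 organs the log2 ratios of the 3p and 5p arms correlated with Pearson's r = 0.865, and the points share their libraries and their hairpins. The second pair of genes in the same clusters, read as rno-miR-29b-5p (Mir29b2) per rno-miR-29b-1-5p (Mir29b1), ran from 0.356 in the thymus to 2.08 in the brain. Its log2 ratio correlated with that of 29c-3p to 29a-3p at r = 0.477 over the 11 organs. In the brain both chromosome 13 arms outnumbered their chromosome 4 counterparts, with 1626 reads of 29b-5p against 781 of 29b-1-5p and 4931 of 29c-5p against 2242 of 29a-5p.

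Libraries of the same organ, sex and age that were high in one member tended to be high in the others. After the mean of each group was subtracted on log2(CPM + 1), 29a-3p and 29c-3p correlated at r = 0.875, 29b-3p and 29c-3p at 0.705 and 29a-3p and 29b-3p at 0.593 over all libraries used, which share a total between members. The deviation of the 3p sum correlated with the log2 library total at 0.0978. Deviations of the 3p sum in libraries of 2 organs with the same sex, age and replicate number had a median correlation of -0.0206 over 36 pairs of organs (-0.348 to 0.339, 17 above 0). No level common to the libraries of one number was therefore seen across organs.

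The miRNAs outside the family whose pattern over the 44 means of organ and age was most like the 3p sum were rno-miR-101a-3p (r = 0.838), rno-miR-1843b-5p (0.753), rno-miR-1843a-5p (0.749), rno-miR-101a-5p (0.728) and rno-miR-664-3p (0.685). After the mean of each organ was subtracted, which leaves the course over age, they were rno-miR-664-3p (0.908), rno-miR-101a-3p (0.899), rno-miR-1843b-5p (0.855), rno-miR-1843a-5p (0.844) and rno-miR-22-3p (0.807). In the brain rno-miR-101a-3p had a mean of 3865 CPM at week 2 and 10839.5 at week 104, and in skeletal muscle rno-miR-664-3p had 19.2 and 88.7 CPM. In the thymus rno-miR-22-3p had 9657 and 42737 CPM. All these means share the same libraries, and no test was made on them.

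Sex was compared in the 9 organs that both sexes have. Averaged over the 4 ages, 1 of 63 pairs of member and organ differed at an adjusted p under 0.05, with edgeR's quasi-likelihood test (two-sided) and Benjamini-Hochberg adjustment over the 616 miRNAs of an organ, where 1.39% of all 5544 pairs did. This was rno-miR-29a-3p in the heart, higher in females by 0.36 ± 0.08 on the log2 scale (adjusted p = 0.00650, 16 libraries per sex), where 0.649% of the miRNAs were called. The call was lost without replicate 2 of each group (adjusted p = 0.291), without replicate 4 (0.0514) and with library size as the only scaling (0.110).

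That average covers ages that differed. At week 2, the mean of the 3p arms was higher in females than in males in most organs. All 4 juvenile females lay above all 4 juvenile males in 16 of 27 pairs of 3p arm and organ and below them in 0, whereas 2.83% of all pairs of miRNA and organ were separated upward and 6.69% downward. The median log2 difference, female minus male, was 0.72 at week 2 against -0.01 for all miRNAs, and it was -0.04 at week 6, 0.06 at week 21 and -0.07 at week 104. With TMM-scaled library sizes the count at week 2 was 19 of 27, and without the spleen, whose juvenile RNA was of low integrity, it was 13 of 24. At weeks 6 and 104 the count was 0 of 27 in either direction, which is near the share of all pairs. That share was 2.94% upward and 1.06% downward at week 6, and 2.13% and 2.16% at week 104. At week 21 the count was 3 of 27 upward, where 2.47% of all pairs were. These were rno-miR-29a-3p and rno-miR-29b-3p in the liver and rno-miR-29c-3p in the heart. The same 4 females and 4 males gave all 9 organs, so these organs are not independent of each other.

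The heart showed the difference most clearly. At week 2 rno-miR-29a-3p was at 694, 831, 554 and 644 CPM in the 4 females and at 379, 316, 226 and 294 CPM in the 4 males, a log2 difference of 1.33 ± 0.15 (SE). The lowest female lay well above the highest male. For rno-miR-29b-3p the females had 37.8, 31.3, 28.7 and 30.8 CPM and the males 14.4, 6.81, 10.4 and 16.6, a log2 difference of 1.58 ± 0.21. For rno-miR-29c-3p the females had 204, 257, 176 and 204 CPM and the males 145, 122, 86.4 and 128, a log2 difference of 0.97 ± 0.17. In all 3 arms the sexes did not overlap at this age. At week 104 the 29a-3p levels were 6384, 6971, 8606 and 4612 CPM in females and 5676, 6187, 9128 and 7384 in males, which overlapped.

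A test of the interaction asked whether the female minus male difference at weeks 6, 21 and 104 departed from that at week 2. It called 8 of 63 pairs of member and organ, where 1.42% of all 5544 pairs were called. In the heart 4 of the 7 members were called, against 1.30% of the miRNAs there. These were rno-miR-29a-3p and rno-miR-29b-3p (both with an edgeR adjusted p of 8.69e-05), rno-miR-29a-5p (0.0149) and rno-miR-29c-3p (0.0319), and the first 2 had the smallest p-values of all miRNAs in that organ. The calls of 29a-3p and 29b-3p in the heart were kept in each of 10 alternatives, with adjusted p-values from 3.44e-08 to 0.0258 and from 4.54e-09 to 0.0101. That of 29c-3p was lost in 7 of the 10 (0.00744 to 0.378), among them each of the fits without 1 replicate number, and its value was 0.0506 with a replicate block. That of 29a-5p was lost without replicate 1, 2 or 4 (0.108 to 0.360).

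In the kidney all 3 3p arms were called, at adjusted p-values of 0.00567 for 29c-3p, 0.00623 for 29b-3p and 0.00942 for 29a-3p, against 1.62% of the miRNAs. The juvenile females had 165, 326, 367 and 226 CPM of rno-miR-29a-3p and the males 158, 101, 127 and 100, a log2 difference of 0.89 ± 0.16, and the lowest female stood only just above the highest male. For rno-miR-29b-3p the values were 13.5, 15.9, 16.2 and 10.3 CPM against 6.05, 3.61, 5.74 and 4.30, a log2 difference of 1.28 ± 0.22 with a clear gap. For rno-miR-29c-3p they were 60.0, 90.8, 119 and 64.9 CPM against 42.2, 26.1, 34.8 and 29.5, a log2 difference of 1.09 ± 0.18. These calls were less stable than those of the heart. Without replicate 3 the adjusted p-values were 0.185 for 29a-3p, 0.0718 for 29b-3p and 0.151 for 29c-3p, without replicate 4 they were 0.193, 0.0760 and 0.0869, and without replicate 1 that of 29b-3p was 0.108. Without replicate 2 that of 29a-3p was 0.0526. The same edgeR test also called 2 of the marker miRNAs in the kidney. These were the liver cell marker miR-122-5p (adjusted p = 0.00526) and miR-375-3p of the pancreas list (0.00567), and their part in the miR-29 values was not tested.

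In the lung rno-miR-29a-3p was called (adjusted p = 0.0241), against 1.14% of the miRNAs. The juvenile females had 1014, 642, 735 and 720 CPM and the males 517, 577, 334 and 453, a log2 difference of 0.80 ± 0.17. The call was lost without any 1 of the 4 replicate numbers (0.0970 to 0.434) and with library size as the only scaling (0.189).

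Outside these 3 organs the interaction was not called for any member. For all 3p arms in the brain and spleen, juvenile females still lay above juvenile males without overlap. The same held for rno-miR-29b-3p in the adrenal gland and rno-miR-29c-3p in the liver. In skeletal muscle and the thymus the sexes overlapped for all 3p arms. The juvenile log2 differences of rno-miR-29a-3p were 0.78 ± 0.17 in the brain, 0.72 ± 0.17 in the spleen, 0.58 ± 0.20 in the adrenal gland, 0.38 ± 0.23 in skeletal muscle, 0.27 ± 0.17 in the liver and 0.10 ± 0.18 in the thymus. In the brain the juvenile females had 2605, 2293, 1851 and 2064 CPM and the males 1451, 1480, 1128 and 1553, which did not overlap, and the adjusted p of the interaction was 0.154. In the thymus the mean CPM was lower in females, at 649 ± 97.1 against 758 ± 189.6 (SD, n = 4 each), so the direction there depended on the scaling. At later ages the liver had a difference of its own, since the 4 females at week 21 had more rno-miR-29b-3p than the 4 males (115 ± 21.0 against 53.2 ± 7.61 CPM, a log2 difference of 0.93 ± 0.26), and the interaction of that pair had an adjusted p of 0.184.

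**Figure D4:**
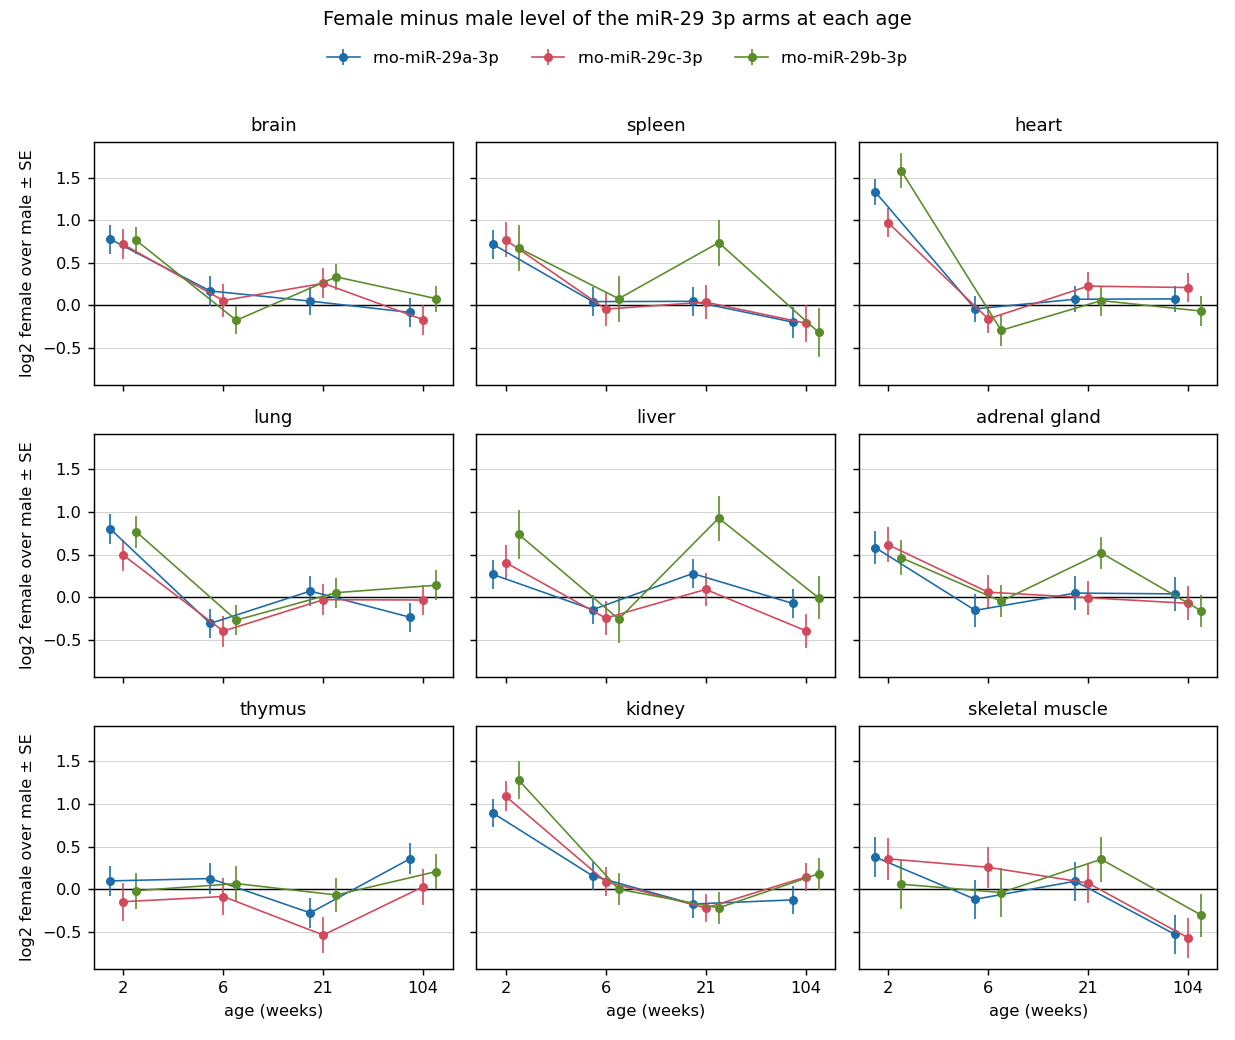
Log2 ratio of female to male level of the 3p arms with its standard error (vertical axis) at each age in weeks (horizontal axis) in the 9 organs of both sexes, from edgeR. At week 2 the heart has values of 1.33, 1.58 and 0.97 for 29a-3p, 29b-3p and 29c-3p, and the medians over arms and organs are 0.72 at week 2 and -0.07 at week 104.

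Some other measures moved with sex in the juvenile libraries. In the kidney miR-122-5p, which marks liver cells, was at 1.87 to 6.79 CPM in juvenile females and at 8.62 to 653 CPM in juvenile males. In the lung the red blood cell markers summed to 18909 to 32203 CPM in females and 35724 to 43772 in males, and the pancreas markers to 1818 to 2510 and 1356 to 1677 CPM. In the heart the epithelial markers miR-200b-3p, miR-200c-3p and miR-141-3p summed to 79.3 to 141 CPM in females and 38.0 to 72.5 in males, while the markers of heart muscle, striated muscle, red blood cells and lymphocytes overlapped between the sexes. In the brain the nervous tissue markers summed to 59596 to 71608 CPM in females and 75613 to 99537 in males, and the germ cell markers to 1069 to 1226 and 1261 to 1468 CPM. In the spleen the red blood cell markers stood at 121545 to 170318 CPM in females and 202608 to 233013 in males, and the lymphocyte markers at 41602 to 58492 and 28853 to 38239.7 CPM. In skeletal muscle the red blood cell markers stood at 76955 to 161263 CPM in females and 41029 to 75210.0 in males, and the striated muscle markers at 73148 to 100688 and 55383 to 69693 CPM. In the thymus the nervous tissue markers stood at 52.1 to 132 and 39.4 to 44.9 CPM. The part of these differences in the miR-29 values was not tested.

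Sequencing lanes were divided unevenly over the sexes at week 2. In the heart the females were in lanes 1, 2, 3 and 5 and the males in lanes 5, 6 and 8, and in the kidney the females were in lanes 2, 6 and 8 and the males in lanes 1, 3 and 7. With the lane as a covariate the heart calls were kept (adjusted p = 9.96e-05 for 29a-3p, 2.50e-04 for 29b-3p and 0.00744 for 29c-3p). In the kidney 29b-3p was kept (0.0135), and 29c-3p (0.0980) and 29a-3p (0.455) were not. In the lung 29a-3p was kept (0.00137). A value within single lanes could not be had, since no lane held 2 libraries of each sex in any of these 3 organs at this age.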

How the data were processed

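Small RNA libraries of 320 organ samples were analysed through the table of read counts per miRNA that the authors deposited. Per the study's methods, the authors trimmed reads with fastp 0.23.2, aligned them to miRBase with Bowtie 1.3.1 and removed miRNAs of low mean count, without normalization. All 616 miRNAs of the table were kept, and the 2 libraries that the study removed were left out. The members and the lists of miRNAs were chosen with earlier results of these data known. Every row of the 3 miR-29 genes was named, and the 5 miRNAs most alike by correlation on log2(CPM + 1).

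CPM were computed from column totals (315550 to 10571766 counts), so counting error is small for the 3p arms and large for the 5p arms. One edgeR 4.0.16 fit per organ (R 4.3.3, TMM, quasi-likelihood) over groups of sex and age gave log2 fold changes, the sex difference and its interaction with age, adjusted by Benjamini-Hochberg over 616 miRNAs. On counts simulated for the kidney with 616 miRNAs, the interaction test recovered 27 of 50 changes of 2-fold and 47 of 50 of 4-fold, with 2 false calls among the unchanged miRNAs. The sex test over all ages recovered 50 of 50 and 49 of 50, with 9 false calls among the unchanged miRNAs. The changed miRNAs had a mean count of at least 10. They outnumbered the calls of any organ in the data, which eases the adjustment. Each simulated miRNA kept its level averaged over the groups, with no change over age other than the inserted difference. Recovery at the lower week 2 levels of the 3p arms was not simulated. Alternatives were library size only, DESeq2 1.42.0, a mean count of at least 10, the lane (from the study's sample table) as a covariate, a replicate block, all 320 libraries, and leaving out each replicate number or 1 aged thymus library. TMM-scaled CPM for counts of separated groups and the order of organs, totals without the top miRNA for the same, and counts without the spleen, were added after seeing the data. The same numbers name different rats in different sexes and ages, so they do not pair the libraries. The mean correlation of their deviations had a median of 0.000133 between ages and 0.00312 between sexes. Samples were grouped by their labels, and replicates are separate rats. Sequences and positions came from RefSeq (GRCr8), while the study's files use rn7. Python 3.11.15, NumPy 2.4.6, pandas 2.3.3 and Matplotlib 3.10.9 were used. Genome alignments, other RNA classes and miRNAs not in the table were not analysed here.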

Additional observations from a re-analysis of the deposited data

Results flagged for a closer look

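The difference between the sexes changed with age for 8 pairs of member and organ by the interaction test of edgeR. The adjusted p-values were 8.69e-05 for rno-miR-29a-3p, 8.69e-05 for rno-miR-29b-3p, 0.0149 for rno-miR-29a-5p and 0.0319 for rno-miR-29c-3p in the heart. They were 0.00567 for rno-miR-29c-3p, 0.00623 for rno-miR-29b-3p and 0.00942 for rno-miR-29a-3p in the kidney, and 0.0241 for rno-miR-29a-3p in the lung. In each pair the 4 juvenile females lay above the 4 juvenile males.

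In 5 of 78 groups of 4 libraries, 1 library lay far from the other 3 in the summed level of the 3p arms, by the gap to its neighbour over the range of the group (above Dixon's 95% critical value for 4 libraries). Chance alone flags about 1 in 20 groups. These were the lowest juvenile female spleen library at 1708 CPM, the lowest female brain library at week 6 at 5839 CPM, the lowest male spleen library at week 6 at 2289 CPM, the highest female heart library at week 21 at 7831 CPM and the lowest male heart library at week 21 at 4491 CPM.

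The 2 libraries that the study set aside also held the family. The study removed them because they clustered with uterus samples. The summed 3p arms were at 6759 CPM in replicate 3 of the male brain at week 6 and at 7005 CPM in replicate 4 of the female spleen at week 104, both within the range of the organ and age over both sexes. The brain library lay below the kept males of its group, which had 7041 to 9518 CPM.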

How the results depend on the processing

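The number of members called for sex over all ages was 1 in the fit reported, 4 with DESeq2, 3 with a mean count of at least 10, and 0 to 2 when 1 replicate number was left out. The number called for the interaction of sex and age was 8 in the fit reported, 2 to 4 when 1 replicate number was left out and 6 to 10 in the other alternatives, 7 of them with a replicate block. The replicate numbers name different rats, so the block has no pairing behind it, and rno-miR-29c-3p in the heart was the only call it ended (adjusted p = 0.0506). The mean 3p sum over ages moved by more than the spread between replicates with TMM-scaled library sizes in the brain (4855 CPM), kidney (3224), skeletal muscle (3343), spleen (3787), testis (6334) and uterus (3074), and without the most abundant miRNA of the organ in the adrenal gland (4736), kidney (3344), liver (4462), testis (7270) and uterus (3067). The median log2 change of the 3p arms from week 2 to week 104 was 3.34 and stayed between 3.07 and 3.49. Of the 33 changes by arm and organ, 18 moved by more than the spread with library size only and 1 with the filter on mean counts, and none changed direction in any alternative. On counts simulated for the kidney at levels averaged over its groups, with 4 rats a group, the interaction test recovered 27 of 50 differences of 2-fold. Recovery in the other organs was not simulated, so organs without a call may hold differences of that size.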
